A study of Homo sapiens with 12 samples.

Results

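The genes described here encode the WNT ligands, their frizzled receptors and 2 families of secreted antagonists. They were chosen by symbol alone, as the protein-coding genes of the RefSeq GRCh38.p14 table named WNT, FZD, SFRP or DKK followed by a digit. That rule gave 37 of the 20037 protein-coding genes on chromosomes 1 to 22, X and Y: 19 ligands (WNT), 10 receptors (FZD) and 8 antagonists (SFRP and DKK).

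WNT proteins are secreted, lipid-modified signals that bind a frizzled receptor together with the co-receptor LRP5 or LRP6, which keeps β-catenin from being degraded and lets it act on target genes with TCF/LEF factors. SFRP proteins bind WNT ligands outside the cell, and most DKK proteins block LRP5 and LRP6. In the liver, WNT2 and WNT9B from endothelial cells act on the hepatocytes around the central vein and switch on genes such as GLUL and CYP2E1. Many WNT genes are held under H3K27me3, the trimethylation of histone H3 at lysine 27 that Polycomb complexes lay down over silent developmental genes, in cells that do not use them.

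The cells were HepG2/C3A, a derivative of the human hepatocellular carcinoma line HepG2 with epithelial-like form. HepG2 is known to carry a shortened, active β-catenin, so its pathway is partly on without a ligand. Chromatin was profiled by CUT&Tag, in which an antibody tethers a transposase that cuts and tags the DNA around it, with an antibody to H3K27me3 or to lysine carrying a succinyl group on whichever protein (pan-succinyllysine, Ksu). Cells were given sodium succinate, dissolved in water, at 10 mM for 48 h, or were kept as control over the same time, and the design text calls the control a vehicle. Each combination of antibody and treatment had 2 biological replicates, 8 libraries in all. The labels say no more of how replicates were separated, so the spread given here may be partly technical. Files of 4 IgG samples were not used here, and an antibody background is therefore not subtracted.

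Each library is a list of peaks, not of reads. H3K27me3 lists held 19133 and 5813 peaks in control and 9985 and 5531 after succinate, covering 199, 117, 173 and 140 Mb. Ksu lists held 76702 and 382019 peaks in control and 294568 and 629903 after succinate, covering 80.4, 185, 188 and 329 Mb. The lowest total signal of a listed peak, in units of each library's own signal step, is called its floor. It was 51892, 211123, 132374 and 330250 for H3K27me3 and 8977, 76.0, 4247 and 49.0 for Ksu, in the same order. Lists were therefore not equally deep, and the number of reads behind them is unknown. For this reason results were also computed with equal numbers of peaks (the 5531 or 76702 strongest of each library) and at a common floor (only peaks at or above the highest floor of that antibody). A common floor did not even out the lists. In the same order it left 93.5, 93.4, 127 and 140 Mb under H3K27me3 peaks, and 76702, 2526, 42885 and 35927 Ksu peaks. Differences at that setting may therefore still hold differences in depth, which was not tested. A gene without a peak is a gene below that library's threshold, which does not show that the mark is absent. Below, 4 values in a row are control replicates 1 and 2 and then succinate replicates 1 and 2. The covered share is the percentage of a gene body's bases, introns included, that lie under peaks.

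H3K27me3 lay over most WNT ligand genes in every library. Of the 10 receptor genes it overlapped 6, 2, 3 and 3. Of the 37 genes, 19 (51.4%) were overlapped by a peak in all 4 libraries, beside 12.3% of all protein-coding genes. They were 14 of the 19 ligands, 2 of the 10 receptors and 3 of the 8 antagonists. Another 10 were overlapped in 1 to 3 libraries. The remaining 8 had no peak in any library, beside 75.0% of all genes: the ligand WNT8A, the receptors FZD4, FZD5, FZD6 and FZD10, and the antagonists DKK2, DKK4 and SFRP4. Per library, 28, 22, 23 and 21 of the 37 were overlapped, beside 23.4%, 13.6%, 19.1% and 15.5% of all genes. Taking equal numbers of peaks, 19 were again overlapped in all 4 libraries (11.0% of all genes), and at a common floor 15 (8.84% of all genes). The median gene body was 29277 bp for ligands, 5740.5 bp for receptors, 14073 bp for antagonists and 24115 bp for all genes. The part of length in the difference between classes was not tested.

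The peaks over these genes were broad. In total, 46.2%, 41.2%, 47.0% and 42.0% of the 37 genes' bases lay under H3K27me3 peaks, beside 7.07%, 4.60%, 6.30% and 5.31% for all protein-coding genes. Ligands had 63.8%, 60.4%, 66.6% and 60.0% of their bases covered. Receptors had 11.6%, 5.18%, 7.59% and 7.74%, below the ligands in every library. Antagonists had 23.1%, 15.0%, 21.8% and 17.5%, between the other classes in every library. For 16 genes at least 50% of the body was covered in all 4 libraries, beside 6.65% of all genes. The strongest peak over each overlapped gene had a median width of 13657, 25852, 24281 and 30615 bp, beside 6767, 14406, 11488 and 17454 bp for all peaks of the same libraries. By total signal those peaks stood at a median percentile of 83.5, 74.4, 80.2 and 75.8 within their library. Picking the strongest peak that touches a gene favours wide peaks of high signal. The strongest peaks over other genes were not read, so these widths and percentiles do not show that the family differs from other genes.

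**Figure D1:**
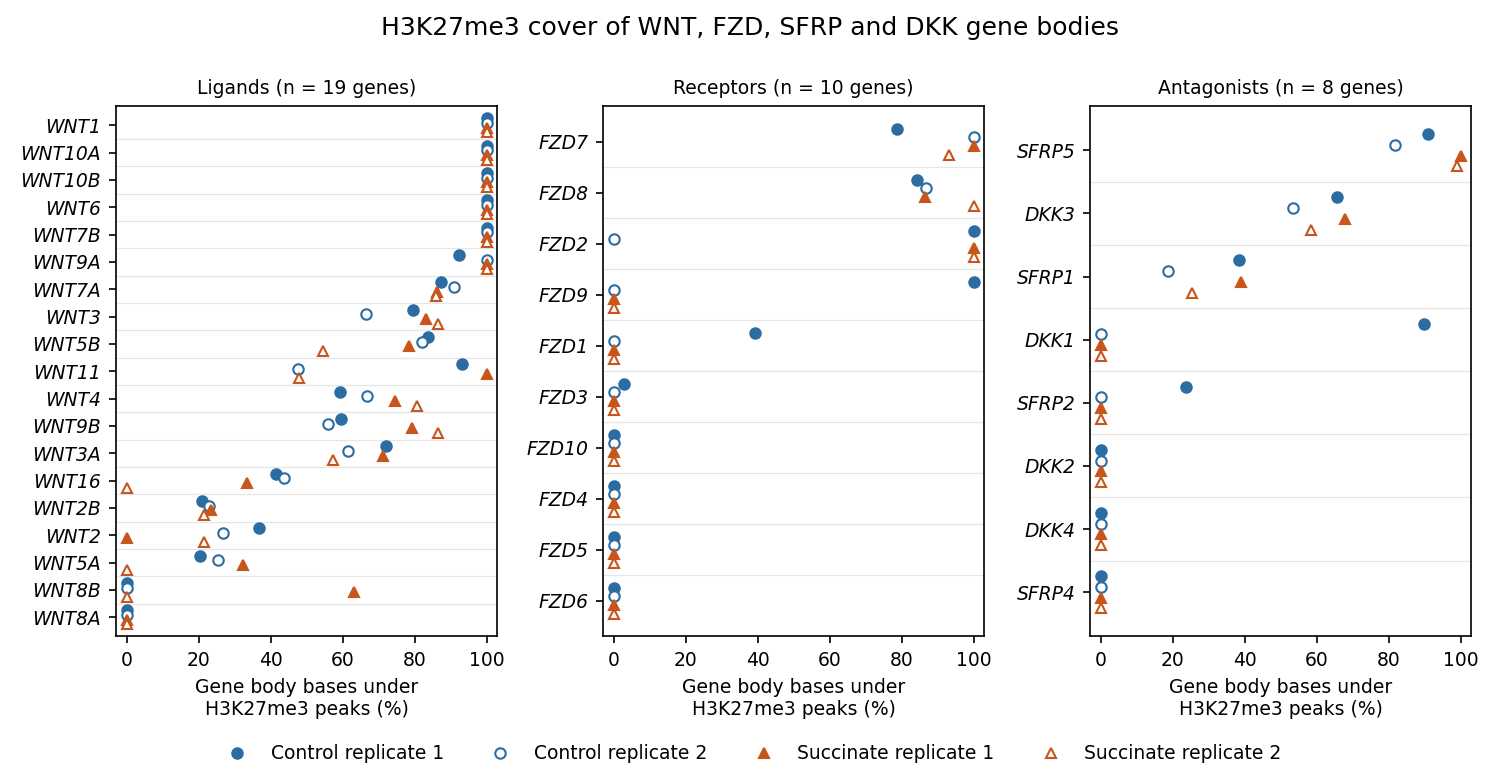
H3K27me3 covered share of each gene (x axis, percentage of gene body bases under peaks), with a row for each gene, a panel for each class and a point for each library: circles are control and triangles succinate, filled for replicate 1 and open for replicate 2. WNT1, WNT6, WNT7B, WNT10A and WNT10B stand at 100% in all 4 libraries, and FZD4, FZD5, FZD6, FZD10, DKK2, DKK4, SFRP4 and WNT8A at 0.

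Among the ligands, 5 were covered over their whole length in all 4 libraries, WNT1, WNT6, WNT7B, WNT10A and WNT10B, beside 2.72% of all genes. WNT1, the founding member of the family, occupies chr12:48978322-48982620, and WNT10B, which acts on bone and fat formation, lies next to it at chr12:48965340-48971735. WNT6 (chr2:218859805-218874233) and WNT10A (chr2:218874116-218893928), both used in epithelial development and WNT10A in tooth and hair formation, overlap by 118 bp. WNT7B (chr22:45920366-45977162), a ligand of lung and kidney development, sat inside the widest peak over any of the 37 genes, 131229, 138595, 140434 and 137183 bp across. By total signal that peak ranked 18th, 24th, 23rd and 26th in its library. WNT9A (chr1:227918656-227947932), a ligand of joint formation, was covered over 92.4%, 100%, 100% and 100% of its body. WNT7A (chr3:13816258-13880071), which patterns the limb, was covered over 87.4%, 91.0%, 86.3% and 85.9%.

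WNT2B, at 20.9%, 22.9%, 23.3% and 21.5%, had the lowest mean covered share of the 14 ligands found in every library. Its downstream start was inside a peak in all 4 libraries and its upstream start in none. WNT11, a ligand of cell movement in the embryo, was covered over 93.0% and 100% in the replicate 1 libraries of control and succinate and over 47.7% and 48.0% in the replicate 2 libraries. The replicates of WNT11 were therefore further apart than the treatments.

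Ligand genes lie in pairs at 4 places where gene bodies are under 100 kb apart. At 3 of the pairs a single peak reached over both genes in every library. WNT10B and WNT1, with 6.59 kb between them, shared a peak of 33.7, 33.8, 41.4 and 44.4 kb. WNT6 and WNT10A shared a peak of 47.3, 47.3, 56.9 and 61.1 kb, which ranked 99th, 116th, 147th and 152nd of its library by total signal. WNT3 (chr17:46762506-46818692) and WNT9B (chr17:46833189-46886738), with 14.5 kb between them, shared a peak of 62.3, 55.3, 64.4 and 69.8 kb that left part of each gene outside. At all 3 the peak was wider in both succinate libraries than in both control libraries, and 34.5% of all H3K27me3 regions shared by the 4 libraries also covered more bases in both succinate libraries. WNT9A and WNT3A on chromosome 1, 59.1 kb apart, had separate peaks in all 4 libraries, with 55.9%, 54.7%, 55.1% and 49.9% of the whole span covered.

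**Figure D2:**
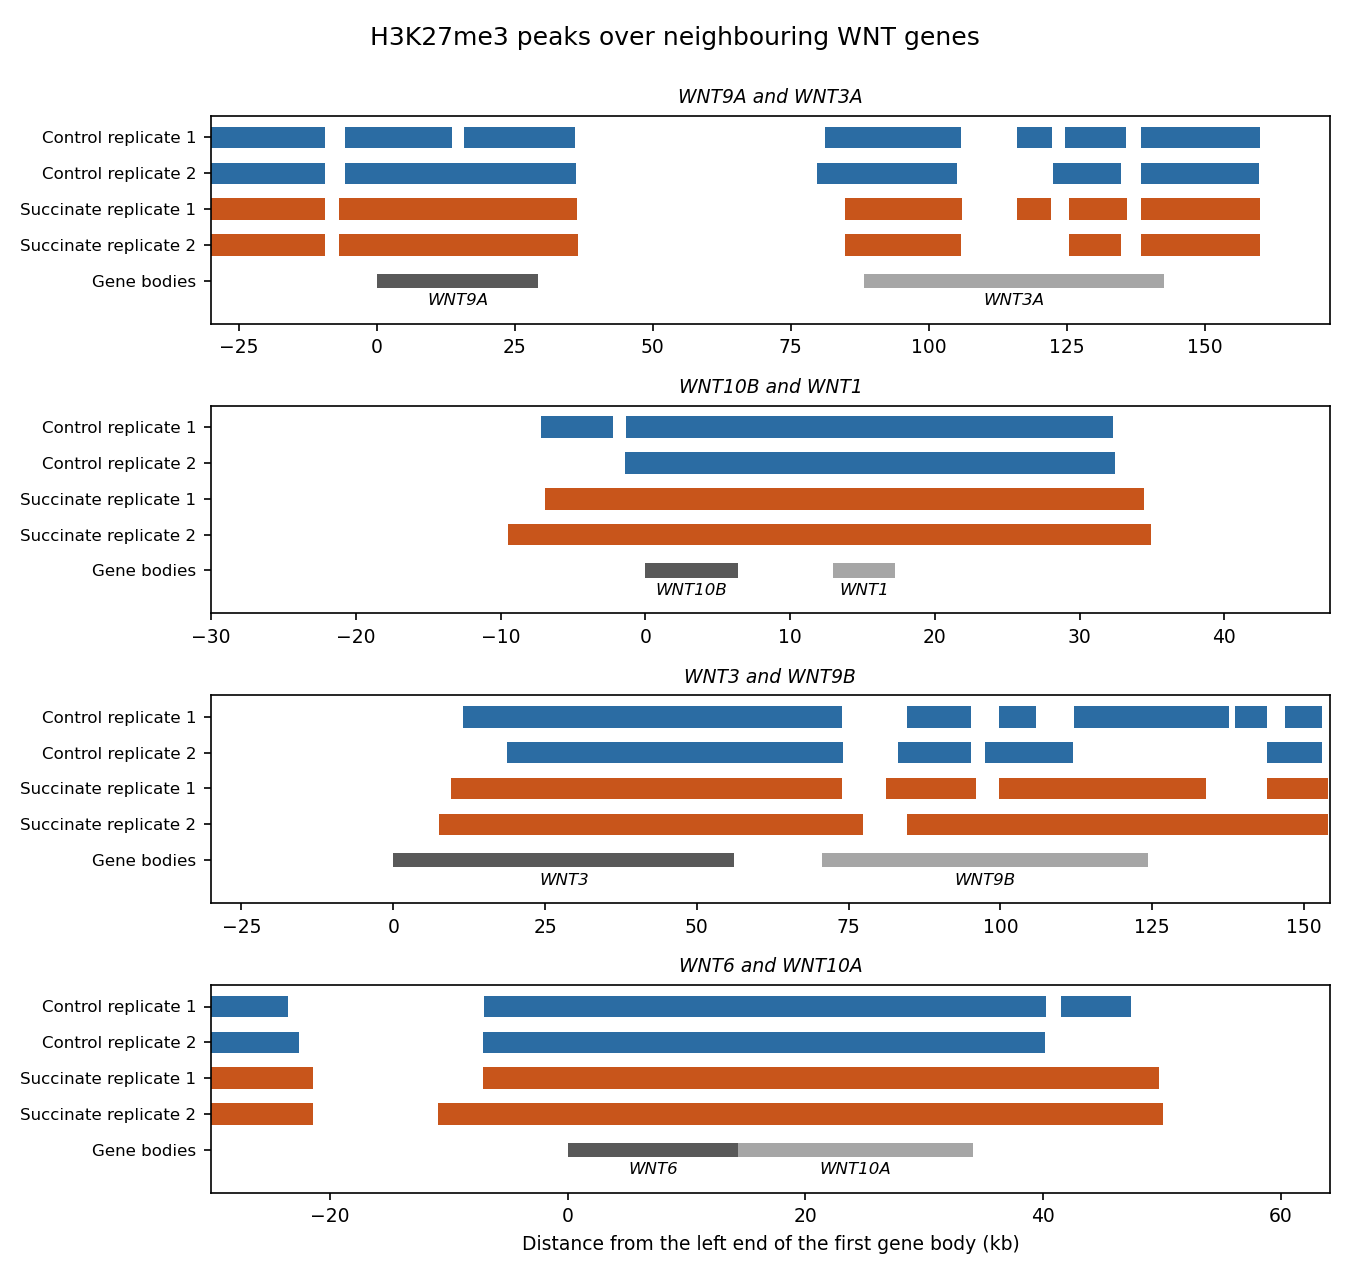
H3K27me3 peaks (bars, blue for control and orange for succinate) in each library around the 4 pairs of neighbouring ligand genes (grey bars), by distance in kb from the left end of the first gene. A single bar spans WNT10B and WNT1, and WNT6 and WNT10A, in every library, while the space between WNT9A and WNT3A holds a gap in all 4.

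Among the receptors, only FZD7 and FZD8 were overlapped in all 4 libraries. FZD7 (chr2:202033855-202038441), a frizzled of stem and progenitor cells, was covered over 78.7%, 100%, 100% and 93.2%. FZD8 (chr10:35638247-35642296) was covered over 84.2%, 86.8%, 86.4% and 100%. FZD2 (chr17:44557484-44561262) was covered over 100%, 0%, 100% and 100%, and in control replicate 2 a peak of 19624 bp lay in the same region beside the gene without reaching it. FZD1, FZD3 and FZD9 were overlapped only in control replicate 1, over 39.4%, 2.93% and 100% of their bodies. FZD4, which is also the receptor of norrin, FZD5, FZD10 and FZD6, a frizzled of planar cell polarity, had no peak.

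Among the antagonists, SFRP5 (chr10:97766751-97771999) had the highest covered share, at 90.9%, 81.7%, 100% and 99.0%. DKK3, a divergent member of its family, was covered over 65.5%, 53.4%, 68.0% and 58.5%. SFRP1 was covered over 38.4%, 18.7%, 38.9% and 25.3%, higher in each replicate 1 library than in each replicate 2 library. DKK1, an inhibitor that binds LRP6, and SFRP2 had a peak in control replicate 1 alone, over 89.8% and 23.8% of their bodies. Together with FZD1, FZD3 and FZD9, 5 of the 37 genes were found in control replicate 1 only, beside 4.93% of all genes. Among genes overlapped in at least 1 library it was 5 of 29, beside 987 of 5017, so those shares were close. Control replicate 1 had the lowest floor of the 4 libraries, and with equal numbers of peaks none of the 5 had a peak in any library.

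The sequence before the start was read for the genes that the RefSeq promoter table holds, 25 of the 37, with 28 starts. No start was matched for DKK2, DKK3, DKK4, FZD2, FZD3, FZD6, FZD7, FZD10, SFRP1, WNT7B, WNT10B and WNT11. For 13 of the 25 genes a start lay inside an H3K27me3 peak in all 4 libraries, beside 7.76% of the 15843 genes with a start in the table. These were FZD8, SFRP5 and the ligands WNT1, WNT2B, WNT3, WNT3A, WNT4, WNT5B, WNT6, WNT7A, WNT9A, WNT9B and WNT10A. The 250 bases before the start are shown for the gene of each class with the highest mean cover and a start under the mark, and then for a gene of each class whose start lay in no peak. They are given 5′ to 3′ from RefSeq GRCh38.p14, with each CG dinucleotide, the site of DNA methylation and of CpG islands, in capitals.
WNT1 promoter, chr12:48978072-48978321, plus strand: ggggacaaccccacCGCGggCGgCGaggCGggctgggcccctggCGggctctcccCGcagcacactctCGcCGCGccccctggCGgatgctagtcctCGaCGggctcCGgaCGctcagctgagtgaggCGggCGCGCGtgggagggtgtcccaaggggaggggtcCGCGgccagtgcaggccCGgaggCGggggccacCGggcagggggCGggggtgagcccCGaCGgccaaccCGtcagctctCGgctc
FZD8 promoter, chr10:35642297-35642546, minus strand: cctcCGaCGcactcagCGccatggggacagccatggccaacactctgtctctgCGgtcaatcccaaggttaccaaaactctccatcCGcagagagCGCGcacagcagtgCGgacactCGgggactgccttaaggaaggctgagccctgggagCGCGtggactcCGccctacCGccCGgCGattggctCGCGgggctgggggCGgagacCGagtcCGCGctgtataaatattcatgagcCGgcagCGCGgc
SFRP5 promoter, chr10:97772000-97772249, minus strand: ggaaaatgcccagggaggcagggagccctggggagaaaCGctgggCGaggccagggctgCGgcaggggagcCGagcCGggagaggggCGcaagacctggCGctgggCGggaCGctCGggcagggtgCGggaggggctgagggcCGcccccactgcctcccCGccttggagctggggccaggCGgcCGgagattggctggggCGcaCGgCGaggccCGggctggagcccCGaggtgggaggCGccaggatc
WNT8A promoter, chr5:138083783-138084032, plus strand: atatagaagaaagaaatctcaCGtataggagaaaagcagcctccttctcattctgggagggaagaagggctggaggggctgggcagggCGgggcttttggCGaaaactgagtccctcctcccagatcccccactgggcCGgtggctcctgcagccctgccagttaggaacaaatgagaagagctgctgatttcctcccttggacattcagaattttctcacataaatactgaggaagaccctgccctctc
FZD4 promoter, chr11:86955396-86955645, minus strand: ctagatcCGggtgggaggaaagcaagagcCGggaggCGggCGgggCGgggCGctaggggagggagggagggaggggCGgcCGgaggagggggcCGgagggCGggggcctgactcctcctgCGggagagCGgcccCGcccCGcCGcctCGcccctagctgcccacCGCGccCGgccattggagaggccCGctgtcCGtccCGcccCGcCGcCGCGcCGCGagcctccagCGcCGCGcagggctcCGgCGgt
SFRP4 promoter, chr7:37916818-37917067, minus strand: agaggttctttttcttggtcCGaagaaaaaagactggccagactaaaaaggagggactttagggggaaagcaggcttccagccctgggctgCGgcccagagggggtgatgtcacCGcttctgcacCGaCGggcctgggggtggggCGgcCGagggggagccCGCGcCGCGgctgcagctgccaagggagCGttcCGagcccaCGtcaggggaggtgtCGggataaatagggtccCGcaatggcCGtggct

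The first 3 sequences had an H3K27me3 peak over the start in every library and the last 3 in none. In the window of 250 bases before to 50 after the start, CG occurred 34 times at WNT1, 31 at FZD8 and 28 at SFRP5. It occurred 4 times at WNT8A, 40 at FZD4 and 23 at SFRP4, so a start without a peak could be as rich in CG as one under the mark. The 13 starts in a peak in all 4 libraries held 7 to 53 CG with a median of 37. The 7 starts in a peak in 1 to 3 libraries had a median of 21, and the 8 starts in no peak held 4 to 43 with a median of 20.5. Over all 22183 starts of protein-coding genes the median was 21, and over those in a peak in all 4 libraries it was 18. Of the 20 starts of these genes with at least 21 CG, 12 lay in a peak in all 4 libraries, beside 6.65% of all starts with at least 21. Of the 8 with fewer, 1 did, the downstream start of WNT5B, beside 8.14% of all such starts. These are counts over starts that partly share a gene or a peak, and no test was made on them.

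**Figure D3:**
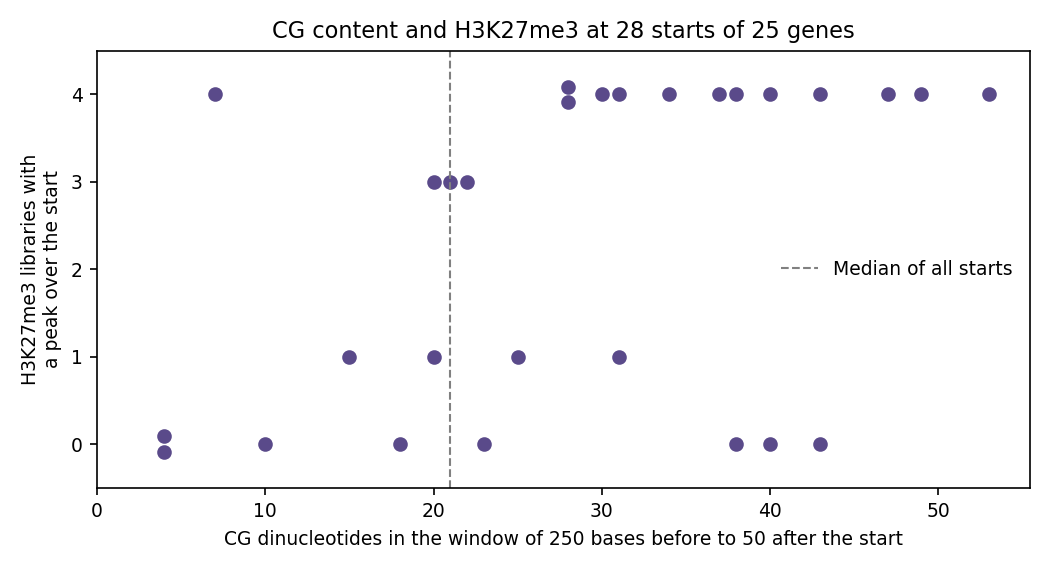
Number of CG dinucleotides in the window around each of 28 starts (x axis, count) against the number of H3K27me3 libraries with a peak over the start (y axis, 0 to 4), with a point for each start and a dashed line at 21, the median of all starts. Of the starts found in all 4 libraries 1 lies left of the line, while starts found in none lie on both sides of it.

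The TCF/LEF word CTTTGAT, searched on both strands, was in none of the 28 windows and in 1.98% of all 22183. That says only that these letters are not in these windows. The upstream starts of WNT2B and WNT5B were in no peak and their downstream starts were in a peak in all 4 libraries. The start of WNT2 was in no library's peaks, which lay toward the other end of the gene, although its window held 43 CG.

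The first comparison asked whether succinate changed H3K27me3 over these genes. Summed over the 37 genes the covered share did not separate the treatments: it was 43.7% ± 3.50 (SD, n = 2) in control and 44.5% ± 3.56 (SD, n = 2) after succinate. The difference of mean log2 values was 0.03, below the pooled SD of 0.12. Ligands went from 62.1% ± 2.36 to 63.3% ± 4.66, receptors from 8.41% ± 4.57 to 7.66% ± 0.108 and antagonists from 19.1% ± 5.73 to 19.7% ± 3.04 (SD, n = 2 each), with overlapping groups in every class. Under equal numbers of peaks the 37 genes had 36.7% and 39.6% in control and 40.6% and 42.0% after succinate, a log2 difference of 0.11 with a pooled SD of 0.06. All genes moved by 0.20 under the same setting. At a common floor the log2 difference was 0.30 for the 37 genes and 0.42 for all genes. On the log2 scale the difference of the family was therefore below that of all genes under both settings. In percentage points the order was the other way. With equal numbers the mean went from 38.1% to 41.3% for the 37 genes and from 4.56% to 5.24% for all genes. At a common floor it went from 32.8% to 40.5% and from 3.81% to 5.10%.

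**Figure D4:**
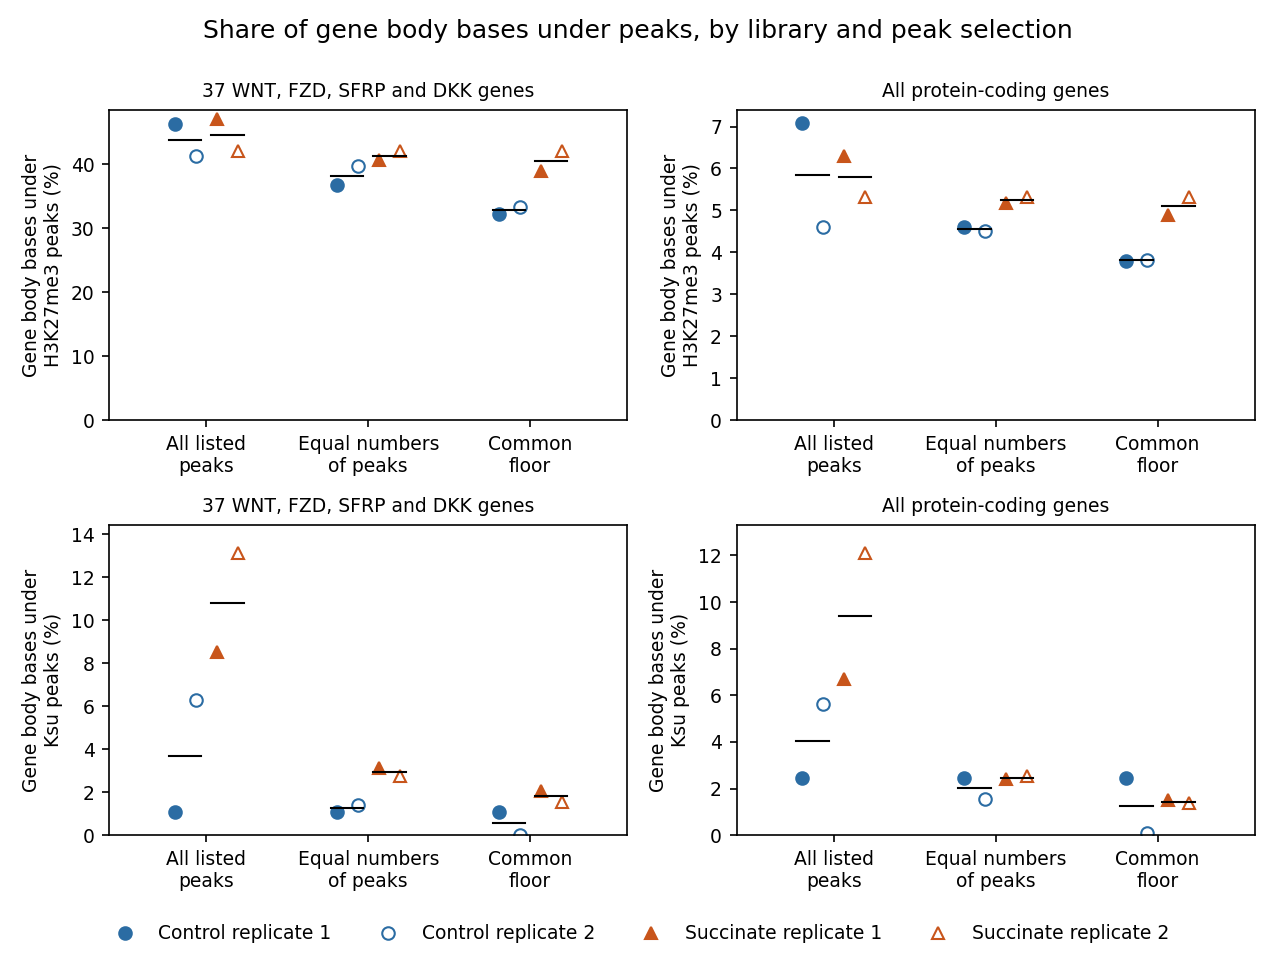
Percentage of gene body bases under peaks (y axes, each from 0) for the 37 genes (left) and all protein-coding genes (right), for H3K27me3 (top) and Ksu (bottom), with all listed peaks, equal numbers of peaks and a common floor along the x axis. Points are libraries and bars are the mean of 2 libraries. The H3K27me3 points of the treatments interleave with all listed peaks and separate with equal numbers, on the left and on the right.

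For single genes, a higher or lower covered share means that both succinate libraries lay on the same side of both control libraries. By that rule 4 genes were higher after succinate, WNT9B, WNT4, SFRP5 and WNT3, beside 3.71% of all genes and 14.8% of the genes overlapped in at least 1 library. Lower were 4 genes, WNT16, WNT2, WNT5B and WNT7A, beside 1.13% of all genes and 4.52% of those overlapped in at least 1 library. The number of genes that were higher is thus near the background of genes that carry the mark at all.

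WNT9B, a ligand of kidney tubules and of liver endothelium, had the largest difference of these 4 higher genes, with 59.7% and 56.0% in control and 79.2% and 86.5% after succinate. Under equal numbers of peaks it read 28.6%, 56.0%, 79.2% and 86.5%, and at a common floor 28.6%, 6.27%, 79.2% and 86.5%, so the groups stayed apart. WNT4 (chr1:22117313-22143097), a ligand of the kidney and the female reproductive tract, went from 59.4% and 66.7% to 74.7% and 80.6%, the same values under both other settings. Its peak was 71581, 68986, 75676 and 73010 bp wide and stood between percentiles 98.0 and 99.7 of its library by total signal. SFRP5 went from 90.9% and 81.7% to 100% and 99.0%, and at a common floor control replicate 1 was at 0. WNT3, the ligand that neighbours WNT9B, went from 79.4% and 66.6% to 83.1% and 86.6%, with the same values under both other settings.

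The lower genes depended on which peaks were listed. WNT16, a ligand of cortical bone, had 41.5% and 43.6% in control and 33.3% and 0% after succinate. WNT2, the other ligand of liver endothelium, had 36.9% and 26.8% in control and 0% and 21.5% after succinate. WNT5B had 83.8% and 82.0% in control and 78.3% and 54.7% after succinate. When equal numbers of peaks were taken, no gene was lower, beside 0.923% of all genes, and 5 were higher, beside 4.98% of all genes. Of the genes overlapped in at least 1 library under that setting, 5 of 21 (23.8%) were higher, beside 28.9% of all such genes. WNT16 then had no peak in any library, WNT2 read 0%, 26.8%, 0% and 21.5%, and WNT5B read 54.9%, 82.0%, 63.6% and 54.7%. At a common floor again no gene was lower, beside 0.419% of all genes, and 6 were higher, beside 5.73%. Of the genes overlapped in at least 1 library there, 6 of 21 (28.6%) were higher, beside 35.2% of all such genes. The share of higher genes was thus not above that of all genes with a peak under either setting.

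The other genes found in 1 to 3 libraries did not separate the treatments. WNT5A, a ligand that mostly signals without β-catenin, had 20.4% and 25.3% in control and 32.2% and 0% after succinate. WNT8B, a ligand of the early forebrain, had a peak only in succinate replicate 1, over 63.1% of its body and not over its start. Neither had a peak in any library when equal numbers of peaks were taken.

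The width of the peaks was compared at the 21 H3K27me3 regions found in all 4 libraries that overlap these genes, a comparison chosen after their values were seen. Of these, 8 (38.1%) covered more bases in both succinate libraries, beside 34.5% of all 4169 such regions, and 2 covered fewer, beside 7.08%. The share that widened is close to that of all regions. The wider regions included the one over WNT1 and WNT10B, at 38.7, 33.8, 41.4 and 44.4 kb, and a region inside and beyond WNT9B, at 53.3, 35.6, 58.9 and 69.3 kb. The narrower regions both lay at WNT3A, at 24.5, 25.3, 21.2 and 21.1 kb and at 11.2, 12.4, 10.6 and 9.43 kb. Among equal numbers of peaks 8 of 19 regions widened, beside 40.2%, and 1 narrowed, beside 6.27%. At a common floor 7 of 14 widened, beside 43.0%, and 1 narrowed, beside 6.39%.

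The second comparison asked whether Ksu over these genes changed with succinate. Ksu peaks were short and scattered: 12, 146, 129 and 268 peaks fell on 9, 31, 30 and 32 of the 37 genes. None of the 37 genes lacked a Ksu peak in every library, beside 9.97% of all genes, and 8 had one in all 4, beside 31.7% of all genes. Ksu covered 1.10% and 6.27% of the 37 genes' bases in control and 8.51% and 13.1% after succinate, or 3.69% ± 3.66 and 10.8% ± 3.27 (SD, n = 2). The groups did not overlap, with a log2 difference of 2.01 and a pooled SD of 1.29. All genes went from 2.46% and 5.60% to 6.71% and 12.1%, a log2 difference of 1.28 with a pooled SD of 0.73. Divided by the share of all genes, the family stood at 0.447 and 1.12 in control and 1.27 and 1.08 after succinate, so those ratios overlapped.

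With equal numbers of Ksu peaks the family had 1.10% and 1.39% in control and 3.15% and 2.74% after succinate, a log2 difference of 1.25 with a pooled SD of 0.20. All genes then read 2.46%, 1.56%, 2.39% and 2.54%, a difference of 0.33 with a pooled SD of 0.33, and their groups overlapped. The ratio of the family to all genes was 0.447 and 0.891 in control and 1.32 and 1.08 after succinate, without overlap, and the log2 difference of the ratio was 0.92 with a pooled SD of 0.52. Of the classes, the ligands alone had groups that did not overlap, at 0.864%, 1.61%, 4.05% and 2.79%. Receptors read 0%, 1.57%, 0.945% and 0.972%, and antagonists 2.37%, 0.737%, 2.24% and 3.71%, both with overlapping groups. At a common floor the family read 1.10%, 0%, 2.07% and 1.56%.

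**Figure D5:**
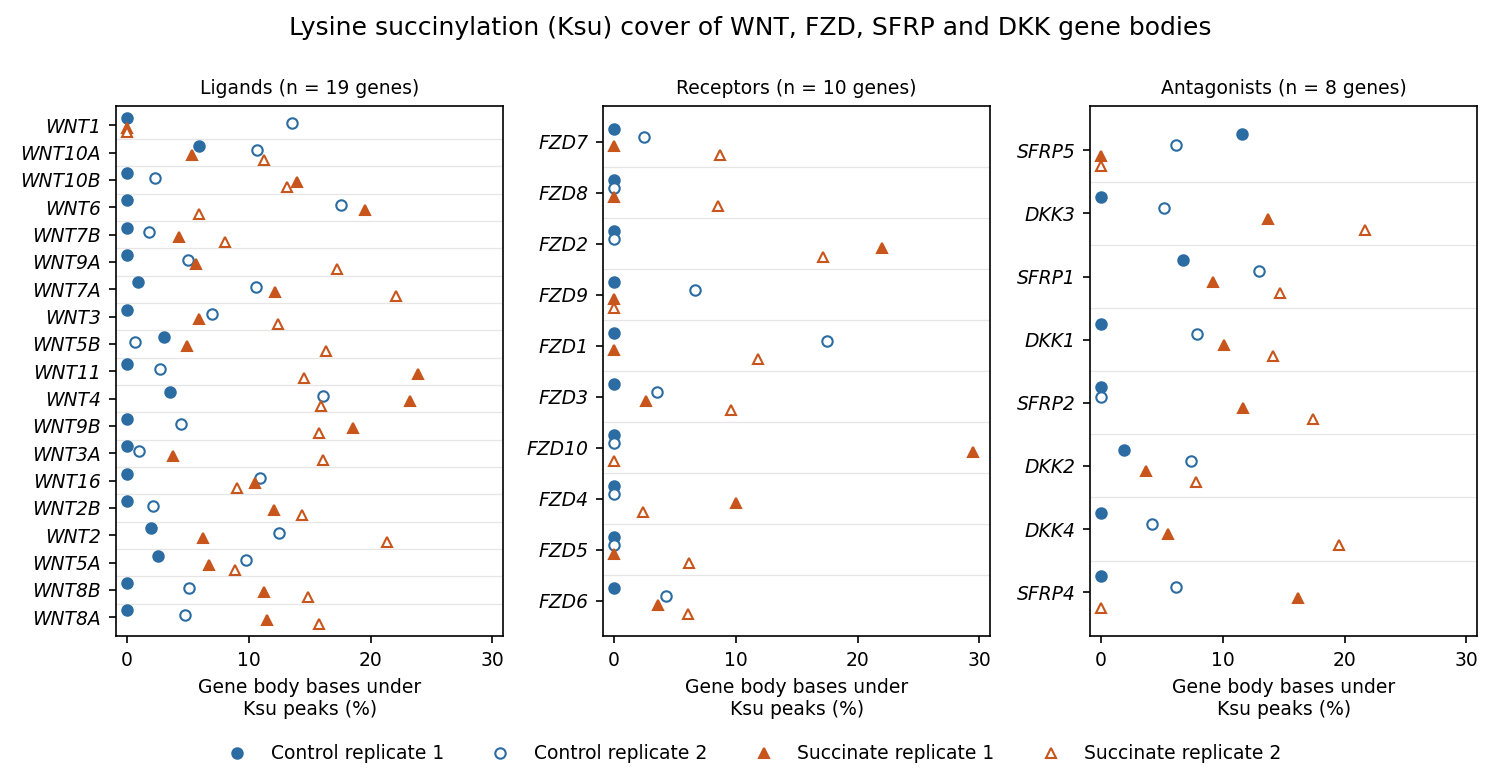
Ksu covered share of each gene (x axis, percentage of gene body bases under peaks), with a row for each gene in the order of the H3K27me3 plot, a panel for each class and a point for each library: circles are control and triangles succinate, filled for replicate 1 and open for replicate 2. Most control replicate 1 points lie at 0, and only SFRP5 has both succinate points below both control points.

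Among single genes 17 of 37 (45.9%) had a higher Ksu covered share in both succinate libraries, beside 46.6% of all genes, so its genes were higher about as often as genes at large. FZD2 had the largest difference of these 17, with 0% in both control libraries and 22.0% and 17.1% after succinate. WNT11 went from 0% and 2.73% to 23.9% and 14.5%, and DKK3 from 0% and 5.16% to 13.7% and 21.7%. Under equal numbers of peaks DKK3 kept its groups apart, at 0%, 0%, 4.06% and 8.93%. FZD2 then read 0%, 0%, 0% and 10.3%, and WNT11 read 0%, 0%, 8.01% and 0%. Under that setting 7 genes were higher, beside 15.8% of all genes, and 1 was lower, WNT5A, beside 4.11%. At a common floor 3 were higher, beside 7.55%, and none lower, beside 0.240%. Among genes with a Ksu peak in at least 1 library, 7 of 29 (24.1%) were higher with equal numbers, beside 24.8% of all such genes. At a common floor it was 3 of 24 (12.5%), beside 14.6%.

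SFRP5 was the only gene of the 37 with a lower Ksu covered share after succinate, beside 0.484% of all genes. It had 11.6% and 6.15% in control and no Ksu peak in either succinate library, while its H3K27me3 covered share was higher in both. With equal numbers of peaks the Ksu peak in control replicate 2 was not kept and the groups overlapped. FZD2, FZD4 and SFRP2 had Ksu peaks in both succinate libraries and in neither control library, 3 of 37 beside 7.63% of all genes, which is near the background.

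The Ksu peak of highest rank over any of the 37 genes was at the 3′ end of WNT4 in succinate replicate 2, and was singled out after its value was seen. It spans chr1:22116772-22119833, ranked 61st of 629903 peaks by total signal, and is 3062 bp wide with 2521 bp in the gene body. The other libraries covered 0, 719 and 886 bp of it. At gene starts, Ksu peaks overlapped 0, 6, 2 and 8 of the 28 start windows, or 0%, 21.4%, 7.14% and 28.6%. Of all 22183 windows 2.05%, 7.63%, 7.90% and 12.9% were overlapped. The share of the 28 windows was thus above that of all windows in both replicate 2 libraries. In the replicate 1 libraries, 0 and 2 of 28 windows are too few to tell from the 2.05% and 7.90% of all windows. Over the 28 windows the treatments overlapped.

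The marks were then set against each other within the 37 genes, pairing Ksu and H3K27me3 libraries of the same treatment and replicate number. Ksu covered 1.27%, 6.68%, 10.8% and 14.3% of their bases inside H3K27me3 peaks and 0.957%, 5.99%, 6.51% and 12.3% of those outside. The log2 ratio of inside to outside was 0.40 and 0.16 in control and 0.73 and 0.22 after succinate, above 0 in all 4 pairs. The treatments overlapped, with a difference of 0.19 and a pooled SD of 0.28. With equal numbers of peaks the ratios were 0.02, -0.93, 0.94 and 0.54, and the groups no longer overlapped. The 19 genes under H3K27me3 in all 4 libraries had a median Ksu covered share of 14.4% in succinate replicate 2. The 10 found in 1 to 3 libraries had 13.0% there and the 8 found in none 6.13%. In succinate replicate 1 the order was not the same, with 5.89%, 8.43% and 7.80%. Nor was it in control replicate 2, with 5.03%, 7.30% and 4.25%, and every median was 0% in control replicate 1. The median gene body of these groups was 29277, 12115.5 and 12942.5 bp, and the part of length was not tested.

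Other genes of the pathway were counted in the same way, beside 12.3% of all genes overlapped in all 4 H3K27me3 libraries and 75.0% in none. Of 6 co-receptors and other WNT receptors, 2 were overlapped in all 4 libraries, ROR2 and ROR1, and 4 in none, LRP5, LRP6, RYK and PTK7. ROR2, a receptor of WNT5A, was covered over 48.5%, 24.4%, 35.9% and 33.4%. Of 17 other secreted and surface modulators, 4 were overlapped in all 4 libraries and 9 in none. Those with the highest covered share were SOST, the bone inhibitor sclerostin, and the R-spondin gene RSPO1, both at 100% in all 4 libraries, and RSPO4, at 97.8%, 82.0%, 99.9% and 75.3%. Of the 2 genes for ligand modification and secretion, PORCN had no peak and WLS had one in control replicate 1 over 2.51% of its body.

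Of 19 intracellular components, 3 (15.8%) were overlapped in all 4 libraries and 13 (68.4%) in none, CTNNB1 among them. Those shares are near the 12.3% and 75.0% of all genes. The 3 in all libraries were TCF7L1, a mostly repressing TCF factor, at 77.2%, 61.7%, 77.3% and 67.8%, APC2 at 45.6%, 31.3%, 31.8% and 31.9%, and LEF1 at 8.56%, 5.00%, 3.33% and 3.47%. Of 11 targets known in liver, 10 had no peak, AXIN2, LGR5 and GLUL among them, beside 75.0% of all genes. CYP2E1 was covered over 70.0%, 71.5%, 72.7% and 76.4%. By the rule used above, 2 of the 17 modulators (KREMEN1 and KREMEN2), 1 of the 19 intracellular genes (BCL9L) and 1 of the 11 targets (CYP2E1) were higher after succinate, beside 3.71% of all genes and 14.8% of those overlapped in at least 1 library. LEF1 was lower, beside 1.13% and 4.52%, and no co-receptor was either. AXIN2, LGR5, NOTUM, ZNRF3 and RNF43 count in more than 1 list. For Ksu, 5 of 6 co-receptors, 13 of 17 modulators, 10 of 19 intracellular genes and 6 of 11 targets were higher after succinate with all listed peaks, beside 46.6% of all genes, and none of these was lower. Taking equal numbers of peaks, 2 of 6, 4 of 17, 3 of 19 and 1 of 11 were higher, beside 15.8% of all genes, and 1 modulator and 1 intracellular gene were lower, beside 4.11%. The lists differ in gene length. The median gene body was 150942, 65035, 40939 and 13921 bp in these lists, in the same order, beside 24115 bp for all genes. The part of length in these counts was not tested. Of 14 hepatocyte marker genes none had an H3K27me3 peak in any library, and 75.0% of all genes had none either. In all 4 libraries 2 of 6 fibroblast, 2 of 5 endothelial and 1 of 4 immune marker genes had a peak, beside 12.3% of all genes.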

How the data were processed

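The data were SEACR peak lists of 8 CUT&Tag libraries, 1 list per library and not pooled. SEACR and hg38 are named in the submitters' processing notes, and the stringent mode in the names of the deposited lists. The aligner, scaling, control track and threshold are not given in the sources used here. The deposited lists give a total and a highest signal per peak. Highest signals were whole multiples of a step (within 0.02), from which floors were computed. Signal was ranked only within a library.

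Gene bodies came from RefSeq GRCh38.p14, and starts from its promoter table. Overlap needed 1 bp. The family and the other gene lists were matched by symbol, and starts were joined to genes by gene ID. Python 3.11.15, numpy 2.4.6 and pandas 2.3.3 were used, and the overlap code was tested on simulated data.

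The genes, lists and tests were chosen with earlier results of these data known. With 2 libraries a group, the exact two-sided permutation test over 6 arrangements cannot go below 0.333, so no p is given and differences are set beside the pooled SD. Values by library are given for the 3 genes per class with the highest mean H3K27me3 cover, those in 1 to 3 libraries, the 3 largest non-overlapping rises and falls per antibody, neighbours under 100 kb apart, and up to 3 genes per pathway list.

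Alternatives were equal peak numbers, the strongest 50% of peaks, a common floor, a minimum peak width of 500 bp, merging of peaks within 1 kb, bodies extended by 5 kb, 50% cover, a difference of 5 percentage points, each replicate left out and a replicate block. Libraries of 1 treatment only were added after seeing the data.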

Additional observations from a re-analysis of the deposited data

How the results depend on the processing

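Of 98 alternative values for 9 results, 20 moved past the limits set for a change (1 SD of the replicates for a difference, 1.5 times for a count), 3 reversed and 75 did neither, and the cause was not tested. The difference in H3K27me3 cover of the family, 0.03 with all peaks, was 0.30 at a common floor. It ranged from -0.057 to 0.11 with a replicate left out, and was below 0 without control replicate 2 and without succinate replicate 1 (-0.057 each). The number of genes with lower H3K27me3 cover, 4, was 0 with equal numbers of peaks, 1 with the strongest 50%, 0 at a common floor and 2 with a difference of at least 5 percentage points. With a replicate left out it ranged from 4 to 10 and the number with higher cover, also 4, from 5 to 10. Leaving libraries out eases the rule behind every count of genes given here, so such a count could only stay or rise. The number with higher Ksu cover, 17, was 7 with equal numbers, 3 at a common floor and 9 with at least 5 points, and 17 to 27 with a replicate left out. The 1 gene with lower Ksu cover became 0 at a common floor, with peaks of at least 500 bp and with bodies extended by 5 kb, and 1 to 6 with a replicate left out. The Ksu cover difference, 2.01, was lowest without control replicate 1 (0.75) and highest without control replicate 2 (3.27). The difference in the inside to outside ratio, 0.19, was 1.20 with equal numbers of peaks and ranged from -0.063 without succinate replicate 1 to 0.45 without succinate replicate 2. At a common floor the Ksu differences could give no value, because control replicate 2 had no Ksu peak left over the family. The 19 genes under H3K27me3 in all libraries were 19 to 21 with a replicate left out, 22 over the control libraries alone and 20 over the succinate libraries alone, the last pair chosen after seeing the data.

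With the replicate number as a block the differences were 0.03, 2.01 and 0.19, as without it, and the counts of genes were not recomputed with a block. For H3K27me3 cover of the family the same-numbered libraries differed by 0.025 and 0.025, closer together than the pooled SD of 0.12. Deviations of same-numbered libraries correlated at 0.29 across 5017 genes for H3K27me3 and 0.04 across 18040 genes for Ksu, and nothing in the labels says that a number marks a shared batch. With 2 libraries a group and no read depth in peak lists, a gene without the mark and a marked gene below the threshold cannot be told apart.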
